A study of Homo sapiens with 6 samples.

Results

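Semaphorins are guidance cues, and plexins and neuropilins are the cell-surface receptors that read them. The 31 genes described here are the protein-coding rows of the deposited count table named SEMA with a digit and a letter, PLXN with a letter and an optional digit, NRP1 or NRP2, out of 28862 genes listed. They comprise 20 semaphorins, 9 plexins and 2 neuropilins. All libraries come from SH-SY5Y, a human neuroblastoma line of neuron-like character. The series holds 3 control plasmid libraries and 3 (SMN1-labelled) whose label says SMN1 overexpression. The product of SMN1 helps assemble spliceosomal particles. No time after plasmid delivery, dose or clone is given in the sources used here. The labels do not say that replicate libraries were grown as separate cultures. The p-values thus reflect spread between these libraries alone, which may be technical.

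Class 3 semaphorins are secreted and reach plexins through neuropilins, which bind the ligand but have only a short cytoplasmic tail. Class 4, 5 and 6 semaphorins span the membrane, class 7 is held by a lipid anchor, and these bind plexins directly. The cytoplasmic part of a plexin acts on small GTPases of the R-Ras and Rap type and thereby on integrins and the cytoskeleton. In the peripheral nervous system these cues steer neural crest cells and the axons of sympathetic and sensory neurons, and neuroblastoma arises from the sympathetic branch of that crest lineage.

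The gene named in the label went against it. SMN1 was at 20.04, 20.4 and 19.6 CPM with control plasmid and at 14.8, 16.6 and 16.6 CPM in the SMN1-labelled set, with no overlap between the groups (edgeR log2 fold change -0.32 with SE 0.06, adjusted p = 9.40e-05). The row of its paralogue SMN2 was lower as well, also without overlap (edgeR log2 fold change -0.30, adjusted p = 0.0031). How well the counting told reads of SMN1 and SMN2 apart was not tested. Every direction that follows is therefore between libraries as labelled. The libraries held 30379242 to 40275498 reads assigned to genes, and 3 reads, the upper limit that a count of 0 allows, correspond to 0.0721 to 0.103 CPM (read counts scaled to library size with TMM factors). Of 10 adrenergic neuroblastoma markers 9 were tested, 3 of them higher and 6 lower, where 28.0% of all genes tested were called higher and 28.2% lower. Their summed level was 5352 to 5501 CPM with control plasmid and 5469 to 5700.1 CPM in the SMN1-labelled set. TH, the rate-limiting enzyme of catecholamine synthesis, had 3, 3 and 9 reads with control plasmid and 1, 0 and 1 reads in the SMN1-labelled set. Of 11 mesenchymal neuroblastoma markers 6 fell and 1 rose among 10 tested, with sums of 804 to 839.7 and 625 to 694 CPM. Most of each sum was TWIST1, at 704 ± 17.7 and 565 ± 37.0 CPM. TWIST1 was called lower (edgeR log2 fold change -0.32), but not after a correction for length and GC content (-0.02, edgeR adjusted p = 0.61). The 4 Schwann cell markers found summed to 3.80 to 5.34 and 2.37 to 2.63 CPM, and 2 of the 3 tested fell. The 4 endothelial markers found summed to 14.8 to 18.0 and 9.03 to 10.9 CPM, nearly all of it EGFL7, while PECAM1 had 0 to 1 and CDH5 0 to 2 reads per library. The 4 immune markers found summed to 0.379 to 0.466 and 0.433 to 0.517 CPM. The part that these shifts have in the results below was not tested.

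Plexins carried most of the family's transcripts. On the deposited FPKM values, which are scaled by gene length and library depth and so allow genes to be compared, the plexins made up 77.5% ± 0.238 of the summed level of all members in the control libraries (SD, n = 3). They made up 73.3% ± 0.510 in the SMN1-labelled libraries. Semaphorins made up 21.0% ± 0.224 and 25.3% ± 0.425, and the neuropilins 1.43% ± 0.0286 and 1.36% ± 0.0931. In the control mean 13 members reached 1 FPKM, 7 of them plexins and 6 semaphorins. Another 12 members stayed under 0.5 FPKM in both group means.

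PLXNB2, a class B plexin that binds class 4 semaphorins, stood first at 24.1 ± 1.03 FPKM in the control libraries, where it supplied 43.0% ± 0.528 of the summed plexin level. The next 3 were class A plexins: PLXNA1 at 10.3 ± 0.278 FPKM, PLXNA4 at 7.40 ± 0.210 FPKM and PLXNA2 at 6.95 ± 0.216 FPKM. Below them came SEMA4C at 2.97 ± 0.190 FPKM, PLXNA3 at 2.61 ± 0.151 FPKM and PLXNB1 at 2.60 ± 0.139 FPKM. PLXNA3 and PLXNB1 did not differ beyond their spread. In the SMN1-labelled libraries PLXNA2 stood at 3.25 ± 0.0814 FPKM, within its spread of SEMA4C at 3.27 ± 0.112 FPKM. The neuropilin NRP1 was at 0.803 ± 0.0702 FPKM and NRP2 at 0.230 ± 0.0265 FPKM in the control libraries. At the other end SEMA3D had 1 to 5 reads and SEMA3E 0 to 2 reads per library, and these were the 2 members that did not pass the filter on low counts.

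**Figure D1:**
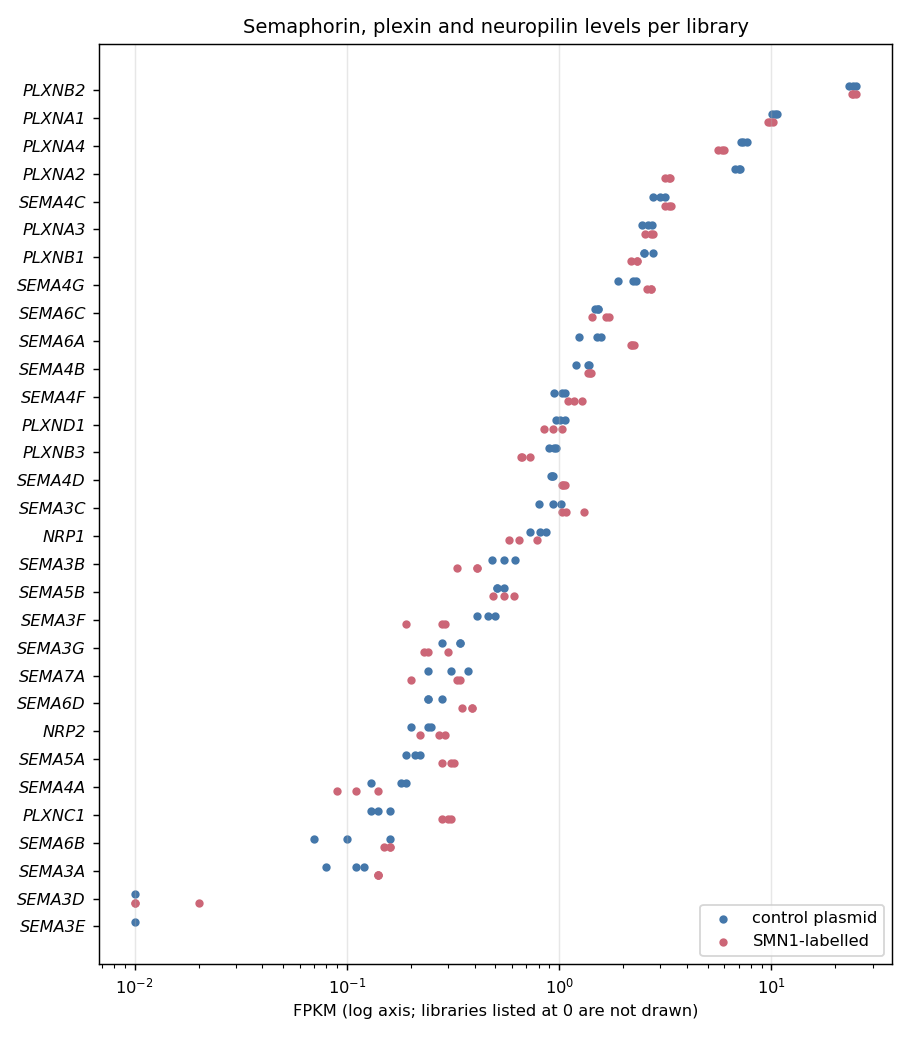
FPKM of each of the 31 members (log axis) in every library, with control plasmid libraries in blue and SMN1-labelled libraries in red, ordered by the control mean. Members run from PLXNB2 near 24 FPKM down to SEMA3E, and PLXNA2 shows the widest gap between the groups among the abundant members.

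Of the 29 members tested, 5 were higher and 10 lower in the SMN1-labelled libraries (edgeR quasi-likelihood test, Benjamini-Hochberg adjusted p at most 0.05). That is 51.7% called, against 56.2% of all 15829 genes tested. The members are all protein-coding, and of protein-coding genes 60.7% were called, so the members' share was not above either background. By direction 17.2% of members rose, against 28.0% of all genes, and 34.5% fell, against 28.2%. Among protein-coding genes 31.5% rose and 29.2% fell. The median log2 fold change was -0.03 over the members and 0.00 over all genes tested. The 6 libraries separated by group without overlap for 15 members (51.7%, against 60.7% of all genes), 7 of them higher (24.1%, against 30.4%) and 8 lower (27.6%, against 30.2%). At 1.5-fold or more 5 members were called (17.2%, against 12.1% of all genes), and at 2-fold or more 1 was (3.45%, against 2.96%). Of all calls on the counts 49.8% were higher in the SMN1-labelled libraries, against 62.5% on log2(FPKM + 0.1). In bulk libraries such as these, fewer cells of a type and less RNA per cell cannot be told apart.

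By class, of the 9 plexins 6 fell and 1 rose, of the 18 semaphorins tested 4 rose and 3 fell, and of the 2 neuropilins 1 fell. Of all genes tested 28.0% rose and 28.2% fell. Among the plexins 11.1% rose and 66.7% fell. Among the semaphorins 22.2% rose and 16.7% fell, both under the shares of all genes. The 4 semaphorins that rose all span the membrane, from classes 4, 5 and 6. Of the 3 that fell 2 are secreted. After the length and GC correction PLXNA1 and PLXND1, which fell, and SEMA5A and SEMA6D, which rose, were no longer called. These are counts over few genes, and a difference between the classes was not tested.

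**Figure D2:**
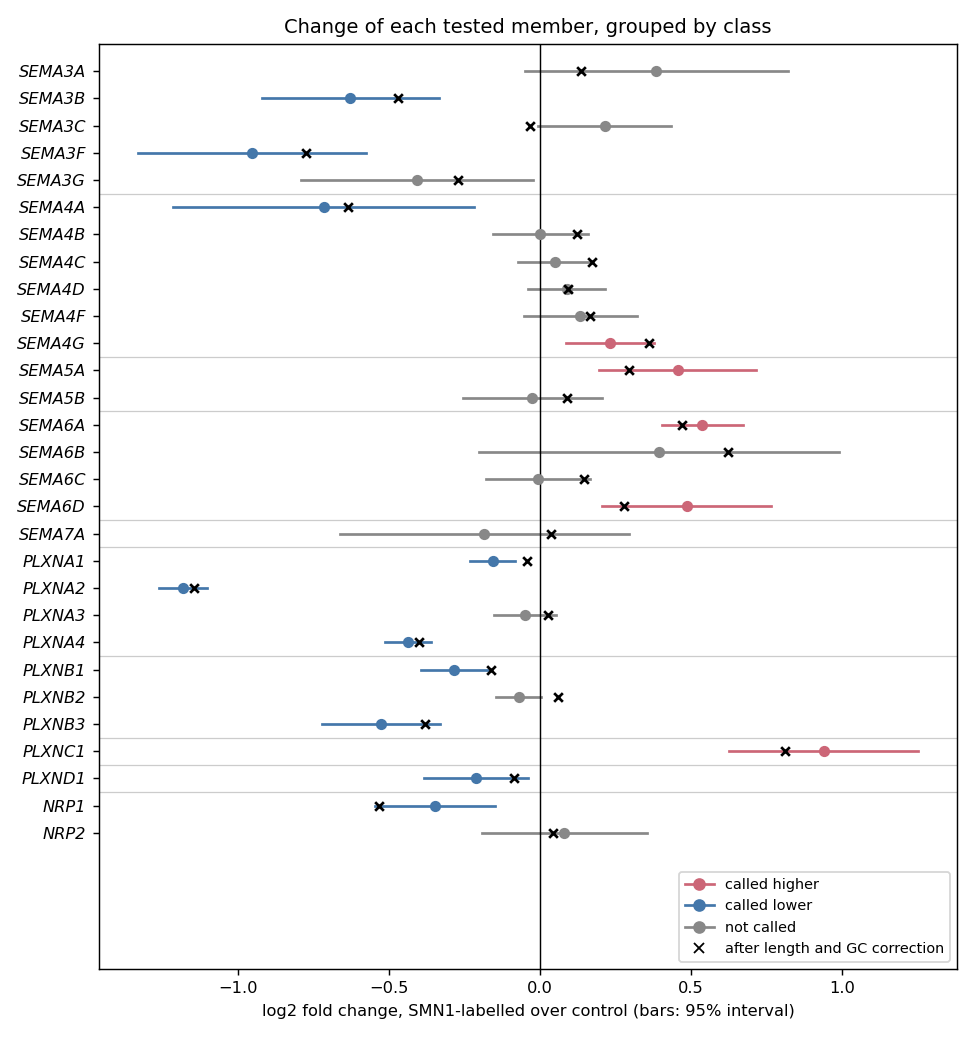
Log2 fold change (SMN1-labelled over control) of the 29 tested members with 95% intervals, ordered by class from secreted semaphorins to neuropilins, with a cross for the estimate corrected for length and GC. PLXNA2 lies farthest to the left at -1.18 and PLXNC1 farthest to the right at 0.94.

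PLXNA2, a receptor for class 6 semaphorins and, with neuropilins, for class 3 semaphorins, had the largest decrease of any member. It was at 106, 107 and 103 CPM with control plasmid and at 47.4, 46.8 and 44.9 CPM in the SMN1-labelled set. The SMN1-labelled libraries were all under 50 CPM and the control libraries all over 100, so the groups were far apart. PLXNA2 fell 2.27-fold (edgeR log2 fold change -1.18 with SE 0.04, adjusted p = 4.79e-17), with adjusted p at most 9.87e-05 under every alternative run. The gene lies in GRCh38 at chromosome 1, 208022242 to 208244320, minus strand (GENCODE v29).

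PLXNA4, the class A plexin that pairs with NRP1 for SEMA3A in sympathetic and sensory neurons, fell as well. It was at 131, 136 and 131 CPM with control plasmid and at 95.1, 101 and 97.8 CPM in the SMN1-labelled set. All 3 SMN1-labelled libraries were below the lowest control library, and the decrease was 1.35-fold (edgeR log2 fold change -0.44 with SE 0.04, adjusted p = 4.29e-10). This call also held under every alternative, with adjusted p at most 0.00117. PLXNA4 spans chromosome 7, 132123332 to 132648688, minus strand.

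PLXNA1, a broadly used partner of neuropilins and a receptor for SEMA6D, was at 129.5, 127 and 125 CPM with control plasmid and at 119, 111 and 113 CPM in the SMN1-labelled set. The groups did not overlap, though the gap between the nearest libraries was small. PLXNA1 fell 1.12-fold (edgeR log2 fold change -0.16 with SE 0.04, adjusted p = 7.66e-04), and the call was lost after the length and GC correction (log2 fold change -0.04, adjusted p = 0.29) and on FPKM values (limma adjusted p from 0.149 to 0.219). PLXNA3, which with NRP2 responds to SEMA3F, was at 33.4, 35.0 and 31.8 CPM with control plasmid and at 33.7, 30.7 and 32.6 CPM in the SMN1-labelled set. These overlapped (edgeR log2 fold change -0.05, 95% interval -0.15 to 0.05, adjusted p = 0.423), and the sign of the estimate turned on FPKM values and after the length and GC correction.

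The class A plexins were also summed. Their summed level was 27.6, 27.9 and 26.4 FPKM with control plasmid and 21.9, 21.4 and 21.5 FPKM in the SMN1-labelled set, without overlap. PLXNA2 took 25.4% ± 0.0711 of that sum with control plasmid and 15.1% ± 0.341 in the SMN1-labelled set. The share of PLXNA1 went from 37.9% ± 0.562 to 45.6% ± 0.894 and that of PLXNA3 from 9.55% ± 0.298 to 12.4% ± 0.439. PLXNA4 held 27.1% ± 0.429 and 26.9% ± 1.17. The sum of FPKM over all genes was 308575 to 313782 with control plasmid and 279585 to 280450 in the SMN1-labelled set. The median over genes tested did not follow that sum. Its log2 fold change was 0.09 on filtered log2(FPKM + 0.1), against 0.00 on the counts. On these scales PLXNA2 was at -1.07 and -1.18.

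**Figure D3:**
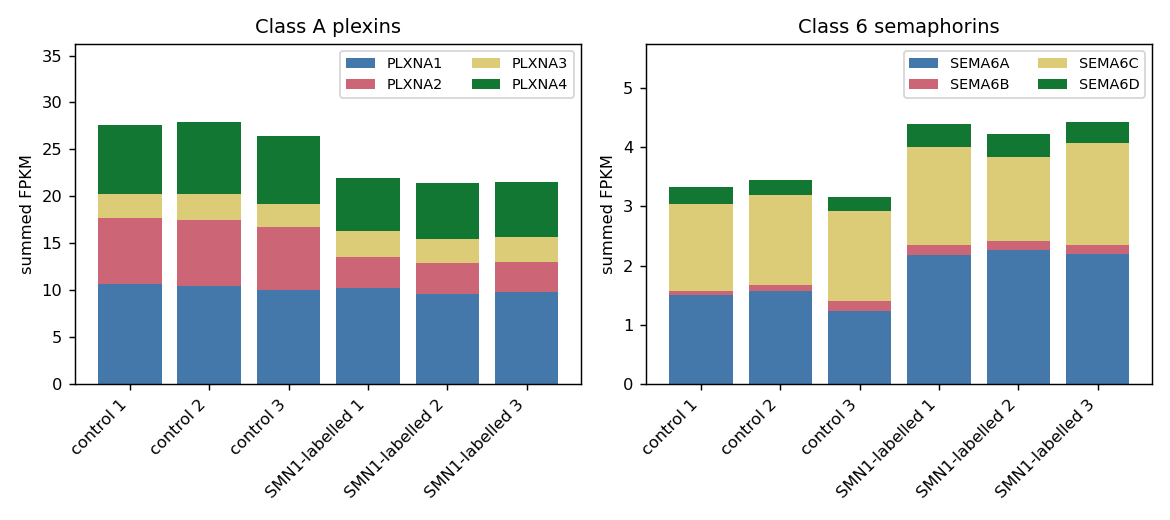
Summed FPKM of the class A plexins (left) and class 6 semaphorins (right) in each library, stacked by gene. The class A sum is lower in all 3 SMN1-labelled libraries, mostly in the PLXNA2 and PLXNA4 segments, and the class 6 sum is higher, mostly in the SEMA6A segment.

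Class B plexins, the receptors for class 4 semaphorins, were lower in 2 of 3 cases (all genes: 28.2%). PLXNB1, the receptor for SEMA4D, was at 29.3, 26.8 and 27.3 CPM with control plasmid and at 23.4, 21.9 and 23.3 CPM in the SMN1-labelled set. Every SMN1-labelled library was under every control library, a decrease of 1.22-fold (edgeR log2 fold change -0.28 with SE 0.05, adjusted p = 7.48e-05), though on unfiltered log2(FPKM + 1) limma gave an adjusted p of 0.0575 and the corrected log2 fold change was -0.16. PLXNB3, a receptor for SEMA5A, was at 7.36, 6.85 and 7.38 CPM with control plasmid and at 4.81, 5.29 and 4.84 CPM in the SMN1-labelled set. It fell 1.44-fold without overlap (edgeR log2 fold change -0.53 with SE 0.09, adjusted p = 4.80e-05), and kept its call under every alternative. PLXNB2, the most abundant member, was at 192, 199 and 186 CPM with control plasmid and at 189, 179 and 181 CPM in the SMN1-labelled set. Its groups overlapped and the difference was not called (edgeR log2 fold change -0.07, 95% interval -0.14 to 0.00, adjusted p = 0.0992); it was called lower in 4 alternatives, among them the fits without SMN1-labelled library 1 and without control library 3 (adjusted p = 0.0378 and 0.0445). The estimate was above 0 on FPKM values and after the length and GC correction (0.06, adjusted p = 0.126).

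PLXNC1, the receptor for SEMA7A, was the only plexin that rose. It had 53, 43 and 46 reads with control plasmid and 103, 131 and 95 reads in the SMN1-labelled set. Scaled for depth it stood at 1.76, 1.41 and 1.59 CPM with control plasmid and at 3.08, 3.15 and 2.89 CPM in the SMN1-labelled set. The lowest SMN1-labelled library was above the highest control library, and the gene rose 1.92-fold (edgeR log2 fold change 0.94 with SE 0.15, adjusted p = 1.19e-05), with adjusted p at most 0.00264 over the 15 alternatives that tested it. At 0.297 ± 0.0153 FPKM it remained one of the scarcer members in the SMN1-labelled libraries. It lies at chromosome 12, 94148723 to 94307675, plus strand. Its ligand SEMA7A, which also binds integrins, was at 1.53, 1.28 and 0.9995 CPM with control plasmid and at 1.31, 0.793 and 1.31 CPM in the SMN1-labelled set. Those overlapped (edgeR log2 fold change -0.18, 95% interval -0.66 to 0.29, adjusted p = 0.519), and the sign turned without SMN1-labelled library 2 and after the length and GC correction.

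PLXND1, the receptor for SEMA3E and, with neuropilins, SEMA3C, was at 10.1, 11.1 and 10.8 CPM with control plasmid and at 10.2, 8.32 and 9.19 CPM in the SMN1-labelled set. SMN1-labelled library 1 lay within the range of the control libraries. The call was weak (edgeR log2 fold change -0.21 with SE 0.08, adjusted p = 0.0325) and lost in 10 of 17 alternatives, among them DESeq2 (adjusted p = 0.146), the length and GC correction (0.384) and the fits without control library 2 or 3 or SMN1-labelled library 2 or 3 (0.0594 to 0.218).

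The 250 bases before the RefSeq start of PLXNA2 and PLXNC1, the members with the largest decrease and the largest increase, are shown to set the 2 start regions side by side. They are given 5′ to 3′ on the gene's strand (GRCh38.p14; chr1:208244385-208244634 minus strand and chr12:94148327-94148576 plus strand), with every GGGCGG, the core of the GC box bound by SP and KLF factors, in capitals. PLXNC1 has another RefSeq window, not shown. Matches can overlap where the motif repeats.
PLXNA2: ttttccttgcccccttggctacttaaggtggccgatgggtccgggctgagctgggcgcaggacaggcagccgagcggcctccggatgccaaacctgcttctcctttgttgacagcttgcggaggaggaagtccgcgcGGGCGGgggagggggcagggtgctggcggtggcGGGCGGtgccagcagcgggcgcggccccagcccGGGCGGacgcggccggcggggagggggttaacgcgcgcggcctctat
PLXNC1: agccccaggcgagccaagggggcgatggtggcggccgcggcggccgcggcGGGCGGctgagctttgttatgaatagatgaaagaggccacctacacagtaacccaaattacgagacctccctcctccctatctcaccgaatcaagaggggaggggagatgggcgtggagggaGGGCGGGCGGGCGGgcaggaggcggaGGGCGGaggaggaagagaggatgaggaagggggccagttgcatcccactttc
Both windows are rich in G and C, 72.4% and 65.2%, and hold 27 and 18 CpG pairs, against medians of 58.0% and 11 over all 35116 RefSeq windows of this length. PLXNA2 has 3 GGGCGG matches on either strand and PLXNC1 has 5. No match to TATAAA, to the AP-1 letters TGANTCA or to the neurogenin-type E-box CAGATG was found in either window on either strand. The 2 windows thus gave the same answer for each of the 4 motifs. Over the 48 windows listed for 27 members the medians were 64.8% G and C and 15 CpG pairs, above those of all windows. Of these 48 windows 30 (62.5%) hold GGGCGG, against 42.6% of all windows. For TATAAA 1 of the 48 does (2.08%, against 10.7%), for TGANTCA 1 (2.08%, against 6.57%) and for CAGATG 7 (14.6%, against 12.2%). The part that base content has in these shares was not tested. A gene can have several windows, which may overlap, and a match is a description of letters, not of binding.

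**Figure D4:**
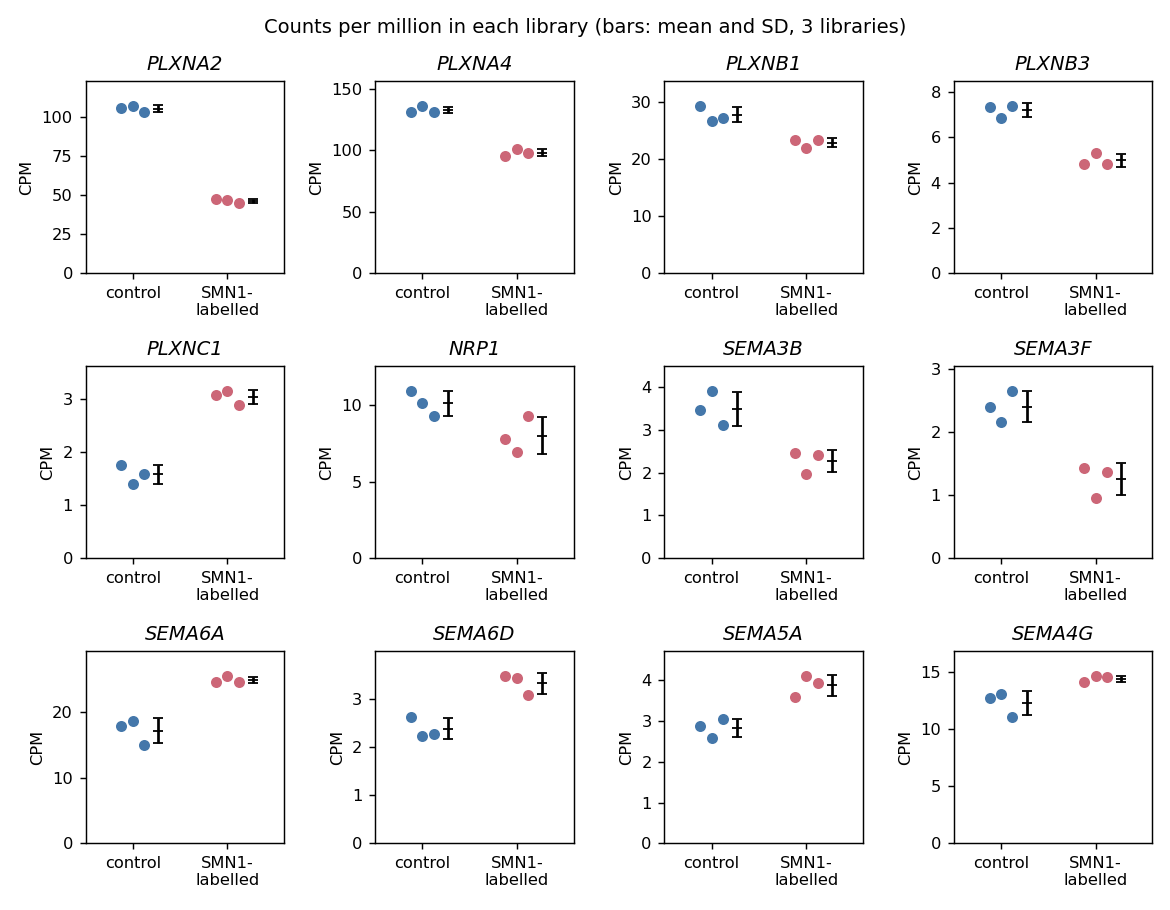
CPM in each of the 6 libraries for 12 called members, with the mean and SD of 3 libraries beside the points and every axis starting at 0. The groups are separate in all panels but NRP1, where control library 3 and SMN1-labelled library 3 nearly coincide.

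NRP1, the co-receptor for SEMA3A and for VEGF-A, was lower in the SMN1-labelled libraries. It was at 10.9, 10.1 and 9.27 CPM with control plasmid and at 7.76, 6.92 and 9.28 CPM in the SMN1-labelled set. SMN1-labelled library 3 reached the lowest control library, so the groups overlapped. NRP1 fell 1.27-fold (edgeR log2 fold change -0.35 with SE 0.10, adjusted p = 0.00356); the log2 fold change was -0.53 after the length and GC correction (adjusted p = 6.79e-05), and the call was lost on FPKM values (limma adjusted p from 0.134 to 0.28). NRP2, the co-receptor for SEMA3F and VEGF-C, was at 3.06, 3.64 and 3.89 CPM with control plasmid and at 3.91, 4.09 and 3.13 CPM in the SMN1-labelled set. Its groups overlapped widely (edgeR log2 fold change 0.08, 95% interval -0.19 to 0.35, adjusted p = 0.628). NRP1 lies at chromosome 10, 33177492 to 33336262, minus strand and NRP2 at chromosome 2, 205681990 to 205798133, plus strand.

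Among the secreted class 3 semaphorins 2 of 5 tested fell and none rose (all genes: 28.2% and 28.0%). SEMA3F, which repels axons through NRP2 and PLXNA3, had 72, 66 and 77 reads with control plasmid and 48, 40 and 45 reads in the SMN1-labelled set. Scaled for depth it stood at 2.40, 2.16 and 2.65 CPM with control plasmid and at 1.43, 0.962 and 1.37 CPM in the SMN1-labelled set. The SMN1-labelled libraries were all lower, SMN1-labelled library 2 the lowest, and the decrease was 1.94-fold (edgeR log2 fold change -0.95 with SE 0.18, adjusted p = 9.80e-05), with adjusted p at most 0.0157 over the 15 alternatives that tested it. SEMA3B, a ligand of both neuropilins first studied as a candidate tumour suppressor, was at 3.46, 3.90 and 3.10 CPM with control plasmid and at 2.45, 1.97 and 2.40 CPM in the SMN1-labelled set. It also fell without overlap, 1.55-fold (edgeR log2 fold change -0.63 with SE 0.14, adjusted p = 5.79e-04), and on unfiltered log2(FPKM + 1) limma gave an adjusted p of 0.0567. The genes are near neighbours on chromosome 3, SEMA3F at 50155045 to 50189075 and SEMA3B at 50267558 to 50277546, both on the plus strand.

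The other class 3 ligands were not called. SEMA3C, which guides neural crest cells through neuropilins and PLXND1, was the most abundant class 3 member by FPKM and was at 5.33, 6.75 and 6.38 CPM with control plasmid and at 6.48, 6.78 and 8.21 CPM in the SMN1-labelled set. Its groups overlapped through SMN1-labelled library 1 (edgeR log2 fold change 0.21, 95% interval -0.01 to 0.43, adjusted p = 0.0916); without that library, or without control library 2, it was called (adjusted p = 0.0447 and 0.0478). SEMA3A, the founding axon repellent, had 23, 34 and 35 reads with control plasmid and 45, 56 and 44 reads in the SMN1-labelled set. After scaling, every SMN1-labelled library was above every control library, yet the difference was not called (edgeR log2 fold change 0.39, 95% interval -0.05 to 0.82, adjusted p = 0.125). SEMA3G, a ligand of NRP2, was at 1.53, 1.87 and 1.90 CPM with control plasmid and at 1.19, 1.54 and 1.22 CPM in the SMN1-labelled set. These overlapped (edgeR log2 fold change -0.41, 95% interval -0.79 to -0.02, adjusted p = 0.0658), and the gene was called lower without control library 1 or SMN1-labelled library 2 (adjusted p = 0.0472 and 0.0408) or with a filter of 1 CPM in 3 libraries (0.0469). SEMA3A, SEMA3C, SEMA3D and SEMA3E all lie on the minus strand of chromosome 7, between 80742538 and 85186855.

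Class 6 semaphorins, membrane-bound ligands of class A plexins, rose in 2 of 4 cases (all genes: 28.0%). SEMA6A, which binds PLXNA2 and PLXNA4, was at 17.8, 18.6 and 14.96 CPM with control plasmid and at 24.6, 25.4 and 24.6 CPM in the SMN1-labelled set. The SMN1-labelled libraries were all above 24 CPM and the control libraries all below 19. SEMA6A rose 1.45-fold (edgeR log2 fold change 0.54 with SE 0.06, adjusted p = 1.74e-07), with adjusted p at most 0.00369 under every alternative. It lies at chromosome 5, 116443616 to 116574934, minus strand. SEMA6D, a ligand of PLXNA1, was at 2.63, 2.23 and 2.27 CPM with control plasmid and at 3.46, 3.44 and 3.07 CPM in the SMN1-labelled set. It rose 1.40-fold without overlap (edgeR log2 fold change 0.49 with SE 0.14, adjusted p = 0.0038), a call lost after the length and GC correction (log2 fold change 0.28, adjusted p = 0.0951).

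The other class 6 members did not pass. SEMA6C was at 9.29, 9.66 and 9.82 CPM with control plasmid and at 10.1, 8.49 and 10.2 CPM in the SMN1-labelled set, with overlap (edgeR log2 fold change -0.01, 95% interval -0.18 to 0.17, adjusted p = 0.946). SEMA6B, at 0.366, 0.524 and 0.827 CPM with control plasmid and at 0.776, 0.769 and 0.700 CPM in the SMN1-labelled set, was among the scarcest members tested and its interval was wide (edgeR log2 fold change 0.39, 95% interval -0.20 to 0.99, adjusted p = 0.257). Summed over the class, the level was 3.32, 3.44 and 3.16 FPKM with control plasmid and 4.40, 4.23 and 4.42 FPKM in the SMN1-labelled set. The groups did not overlap, and SEMA6A took 43.4% ± 3.57 and 50.9% ± 2.18 of the sums. On filtered log2(FPKM + 0.1) the median log2 fold change over all genes tested was itself 0.09.

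Class 5 semaphorins carry thrombospondin repeats beside the sema domain. SEMA5A was at 2.86, 2.59 and 3.03 CPM with control plasmid and at 3.58, 4.09 and 3.92 CPM in the SMN1-labelled set. Every SMN1-labelled library exceeded every control library, and SEMA5A rose 1.37-fold (edgeR log2 fold change 0.46 with SE 0.13, adjusted p = 0.00353), though not past the threshold after the length and GC correction (log2 fold change 0.30, adjusted p = 0.0549). SEMA5B was at 4.76, 4.68 and 5.20 CPM with control plasmid and at 5.37, 4.28 and 4.81 CPM in the SMN1-labelled set, with overlap (edgeR log2 fold change -0.03, 95% interval -0.25 to 0.20, adjusted p = 0.863).

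Of the 6 class 4 semaphorins, membrane-bound ligands of class B plexins, 1 rose and 1 fell (all genes: 28.0% and 28.2%). SEMA4G was at 12.7, 13.1 and 11.1 CPM with control plasmid and at 14.1, 14.6 and 14.5 CPM in the SMN1-labelled set. It rose 1.17-fold without overlap (edgeR log2 fold change 0.23 with SE 0.07, adjusted p = 0.00771), but not without control library 3, its lowest (adjusted p = 0.0712). With the length and GC correction the log2 fold change of SEMA4G was 0.36. SEMA4A, better known from immune cells, had 42, 30 and 39 reads with control plasmid and 25, 25 and 31 reads in the SMN1-labelled set. It fell 1.64-fold without overlap (edgeR log2 fold change -0.72 with SE 0.24, adjusted p = 0.0142), but did not pass with DESeq2 (adjusted p = 0.0825), on unfiltered log2(FPKM + 1) (0.158), without control library 1 (0.069) or without SMN1-labelled library 2 (0.0904).

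SEMA4C, a ligand of PLXNB2, was the most abundant semaphorin by FPKM and was at 21.5, 18.9 and 20.6 CPM with control plasmid and at 21.8, 20.3 and 21.2 CPM in the SMN1-labelled set. The groups overlapped (edgeR log2 fold change 0.05, 95% interval -0.07 to 0.17, adjusted p = 0.489), and it was called higher after the length and GC correction (log2 fold change 0.17, adjusted p = 0.0126). SEMA4D, the ligand of PLXNB1, was at 14.5, 14.02 and 14.4 CPM with control plasmid and at 15.2, 15.1 and 15.4 CPM in the SMN1-labelled set. Every SMN1-labelled library was above the controls, but by little, and the difference was not called (edgeR log2 fold change 0.09, 95% interval -0.04 to 0.22, adjusted p = 0.234). SEMA4B was at 10.5, 10.4 and 9.31 CPM with control plasmid and at 10.2, 10.1 and 9.86 CPM in the SMN1-labelled set. SEMA4F was at 7.22, 6.45 and 7.13 CPM with control plasmid and at 7.11, 8.17 and 7.45 CPM in the SMN1-labelled set. Both overlapped, with log2 fold changes of 0.00 (95% interval -0.16 to 0.16, edgeR adjusted p = 0.999) and 0.13 (95% interval -0.05 to 0.32, edgeR adjusted p = 0.219). For the members of this class that were not called the intervals leave out a 1.5-fold change in either direction.

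Ligands and receptors were also set side by side by known partnership. Over 21 ligand-receptor pairs of 12 ligands, taken from textbook knowledge, both partners were called in 5, in opposite directions in 4 and in the same direction in 1. Of all genes tested 56.2% were called, and how often unrelated pairs would have both partners called was not tested. After the length and GC correction the opposite pairs numbered 2, both with SEMA6A, and the same-direction pair was still 1. SEMA6A rose while its receptors PLXNA2 and PLXNA4 fell, SEMA6D rose while PLXNA1 fell, and SEMA5A rose while PLXNB3 fell. The pair that fell together was SEMA3B with NRP1. The ratio of SEMA6A to PLXNA2 on the FPKM scale was 0.213, 0.221 and 0.185 with control plasmid and 0.659, 0.687 and 0.696 in the SMN1-labelled set. For SEMA3A, 4 receptor genes in the list (NRP1, PLXNA1, PLXNA2 and PLXNA4) fell while the ligand was not called. For SEMA7A the receptor PLXNC1 rose while the ligand was not called. The list holds no pair for the called ligands SEMA4A and SEMA4G. It also does not pair SEMA3B or SEMA3F with the class A plexins that fell. The split between opposite and same directions thus depends on which pairs were listed. Pairs share members and are not independent of each other.

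The other genes of semaphorin signalling were followed through a list of 68, of which 58 were tested. Of these 24 rose (41.4%, against 28.0% of all genes) and 13 fell (22.4%, against 28.2%), with a median log2 fold change of 0.08. All are protein-coding, and of protein-coding genes tested 31.5% rose and 29.2% fell. After the length and GC correction 22 were higher and 7 lower, with 15 of the 24 and 7 of the 13 calls remaining, and 7 were lower under each of the 3 FPKM settings. Among other neuropilin ligands VEGFA rose 1.22-fold, from 159.8 ± 0.210 to 196 ± 1.75 CPM (edgeR log2 fold change 0.29, adjusted p = 7.14e-08), and VEGFB fell 1.49-fold, from 87.0 ± 2.47 to 58.4 ± 1.03 CPM (edgeR log2 fold change -0.57, adjusted p = 1.24e-11). After the length and GC correction the log2 fold change of VEGFB was -0.18. PGF, the third one tested, was not called. Of 5 proteases that cut semaphorins or their receptors 4 rose and none fell (all genes: 28.0% and 28.2%). After the length and GC correction 3 of the 4 were still called. PCSK6, a proprotein convertase, rose 1.94-fold, from 3.91 ± 0.155 to 7.57 ± 0.157 CPM (edgeR log2 fold change 0.95, adjusted p = 1.36e-08). The shedding proteases ADAM17 and ADAM10 rose 1.43-fold and 1.35-fold (edgeR adjusted p = 7.91e-11 and 9.55e-06). Their log2 fold changes went from 0.52 and 0.43 to 0.26 and 0.18 with the correction.

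Co-receptors mostly did not pass. Of 11 tested 1 rose and 3 fell (all genes: 28.0% and 28.2%). ITGB1, the integrin subunit through which SEMA7A can act, rose 1.41-fold, from 124 ± 1.23 to 175 ± 6.71 CPM (edgeR log2 fold change 0.50, adjusted p = 5.06e-11), with a corrected log2 fold change of 0.26. CNTN2, an adhesion molecule of axons, fell 1.57-fold (edgeR log2 fold change -0.65, adjusted p = 3.48e-05), and ERBB2, a kinase partner of class B plexins, 1.24-fold (edgeR log2 fold change -0.31, adjusted p = 0.0185). CNTN2 was not called on unfiltered log2(FPKM + 1) (limma adjusted p = 0.0637). The ERBB2 call was lost with DESeq2, on unfiltered log2(FPKM + 1), after the length and GC correction and without control library 1 or 2 or SMN1-labelled library 2 (adjusted p from 0.0541 to 0.282).

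Downstream of the receptors the lists were mixed. Of the 5 collapsin response mediator proteins, cytoskeletal adaptors in the SEMA3A pathway, 2 rose and 2 fell (all genes: 28.0% and 28.2%). DPYSL4 fell 1.28-fold, from 161 ± 2.79 to 126 ± 6.63 CPM (edgeR log2 fold change -0.35, adjusted p = 3.74e-08), but not past the threshold after the length and GC correction (adjusted p = 0.0646). DPYSL3 fell 1.22-fold (edgeR log2 fold change -0.29, adjusted p = 4.42e-06), and DPYSL5 rose 1.08-fold (edgeR log2 fold change 0.11, adjusted p = 0.00795), a call lost without control library 1 (adjusted p = 0.056), with a corrected log2 fold change of 0.20. The MICAL enzymes, which oxidise actin, split: MICAL1 fell 1.41-fold, from 104 ± 2.49 to 73.9 ± 1.99 CPM (edgeR log2 fold change -0.49, adjusted p = 1.12e-10), MICAL2 rose 1.51-fold, from 4.82 ± 0.453 to 7.25 ± 0.301 CPM (edgeR log2 fold change 0.59, adjusted p = 1.78e-05), and MICAL3 was not called.

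Of 19 small GTPases and regulators 9 rose and 5 fell (all genes: 28.0% and 28.2%). ARHGEF12, an exchange factor that binds class B plexins, rose 1.37-fold, from 40.2 ± 2.31 to 55.3 ± 1.79 CPM (edgeR log2 fold change 0.46, adjusted p = 9.13e-09). RAP1B, a substrate of the plexin GAP domain, rose 1.28-fold (edgeR log2 fold change 0.36, adjusted p = 3.65e-07). With the correction the log2 fold changes of ARHGEF12 and RAP1B were 0.25 and 0.11, and the list held 6 higher and 2 lower. RRAS, the R-Ras GTPase on which plexins act, was picked as an example of those that fell after its values were seen. It fell 1.50-fold (edgeR log2 fold change -0.58, adjusted p = 2.54e-05) and was not called after the correction (log2 fold change -0.18, adjusted p = 0.131). Of 12 genes listed as kinases downstream of plexins, activator subunits of CDK5 included, 6 rose and 1 fell (all genes: 28.0% and 28.2%). Those that rose include GSK3B (1.27-fold higher), ROCK1 (1.23-fold) and PAK2 (1.17-fold), with edgeR adjusted p of 5.13e-07, 1.72e-05 and 2.99e-05. After the length and GC correction the list held 5 higher and 0 lower, some of them not called before. Of the 6 that rose on the uncorrected counts 2 were still called, GSK3B among them at a log2 fold change of 0.11. ROCK1 and PAK2 were not, at 0.04 and -0.01 (adjusted p = 0.456 and 0.825).

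**Figure D5:**
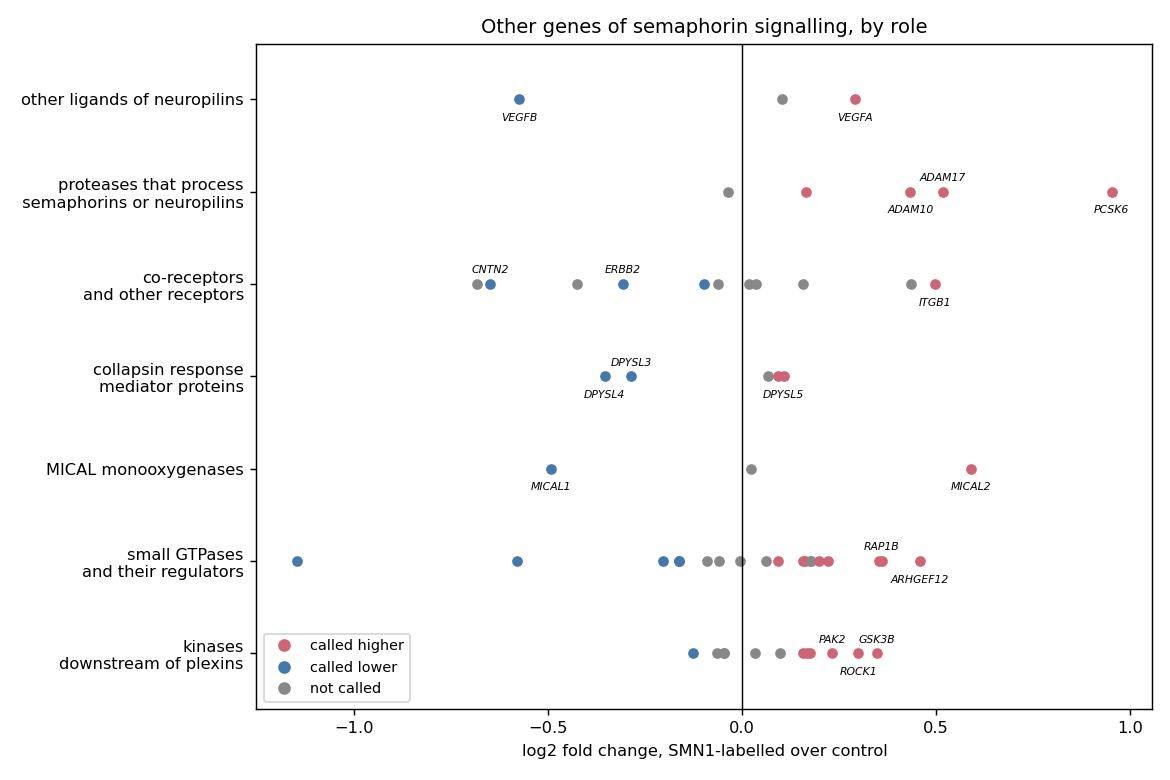
Log2 fold change of each tested gene in the 7 lists of other semaphorin signalling genes, with most genes described in the text labelled and colours giving the call. The proteases lie to the right of 0 apart from FURIN.

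The members are long genes, with a median exonic length of 8517 nt against 4575 nt over all genes tested, and a median GC content of 58.4% against 48.8%. After the correction for both properties 4 members were called higher and 8 lower, and 11 of the 15 calls on the uncorrected counts remained. The median over the members was then 0.04, against 0.02 over all genes. Of the 15 called members 6 kept their call in every alternative that tested them: PLXNA2, PLXNA4, PLXNB3, PLXNC1, SEMA3F and SEMA6A.

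Non-coding rows named for members held few reads. SEMA6A-AS2 had 7, 9 and 7 reads with control plasmid and 8, 19 and 10 in the SMN1-labelled set. SEMA6A-AS1 had at most 3 reads in any library and SEMA3F-AS1 at most 2. None passed the filter on low counts, and whether strand was used in counting is unknown here, so reads of a gene and its antisense partner may not be told apart.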

How the data were processed

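Stranded mRNA libraries were sequenced from SH-SY5Y cells, per the labels' protocols. The submitters' processing notes name HISAT2, DESeq2 and GRCh38. The counting tool, annotation release and strand setting were not given in the sources used here. The authors deposited whole-number read counts per gene (28862 genes) and FPKM values rounded to 2 decimals (28501 genes). Samples were grouped by title, 3 control and 3 SMN1-labelled libraries. Totals of 30379242 to 40275498 reads set the precision, and limits drawn from a count cover counting error only. No libraries were merged, since those of 1 group varied beyond sampling error (chi-square over its degrees of freedom 2.52 to 4.40).

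Counts were tested with edgeR 4.0.16 in R 4.3.3 (TMM, default filterByExpr, quasi-likelihood, group as the only term, two-sided, Benjamini-Hochberg over 15829 genes, significance threshold 0.05). Standard errors were obtained by dividing each log2 fold change by the root of its F statistic. Levels are mean ± SD over n = 3. FPKM was used to compare genes and, with limma 3.58.1 on log2(FPKM + 0.1) or log2(FPKM + 1), as an alternative. Those fold changes understate changes of low genes. Other alternatives were DESeq2 1.42.0, limma-voom, other scaling factors and filters, a replicate block, each library left out in turn, and splines of exonic length and GC content (GENCODE v29, 15663 of 15829 genes) within each library. The members and lists were chosen with earlier results of these data known. All members may be named, and from each pathway list up to 3 called genes in order of p; 1 of these is not reported here. Of 68 listed pathway genes 64 were found. Start sequences are from RefSeq (GRCh38.p14), which listed 27 of 31 members; the 50 bases after each start were dropped. On simulated counts for 15678 genes recovery was 77.6% at 1.5-fold, 91.0% at 2-fold and 95.5% at 4-fold, and 6 of 15482 unchanged genes were called. Only 67, 67 and 66 genes were changed at these folds, whereas 56.2% of genes were called in the data. The simulated rates may therefore not carry over.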

Additional observations from a re-analysis of the deposited data

How the results depend on the processing

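Members called higher and lower numbered 5 and 10. Over the 17 alternatives run the counts stayed within 1.5 times of these except on FPKM values. They were 2 and 5 on both log2(FPKM + 0.1) and log2(FPKM + 1) with the filter, where 19 members were tested, and 4 were lower on log2(FPKM + 1) without a filter. Leaving out 1 library gave 4 to 6 higher and 9 to 11 lower. Pathway genes called lower went from 13 to 7 under each of the 3 FPKM settings and to 7 after the length and GC correction. SMN1 stayed called lower throughout. The replicate numbers showed no sign of pairing the libraries: same-numbered libraries deviated together with correlations of 0.00528, 0.0133 and 0.00300, and not every library correlated best with its own number. With the replicate block 8708 genes were called against 8892 without it, and 5 and 10 members as before.

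No called member changed sign in any alternative. Among the tested members, SMN1 and the pathway genes chosen in order of p, signs turned as follows. All were genes not called except PAK2, which was called higher at 0.23. On log2(FPKM + 0.1) the log2 fold changes were 0.0391 for PLXNA3, 0.0185 for PLXNB2, 0.0570 for SEMA5B and 0.0800 for SEMA6C. On log2(FPKM + 1), with the filter or without, they were 0.0294, 0.0179, 0.0244 and 0.0528. After the length and GC correction they were 0.0274 for PLXNA3, 0.0608 for PLXNB2, -0.0321 for SEMA3C, 0.0890 for SEMA5B, 0.147 for SEMA6C, 0.0369 for SEMA7A and -0.0113 for PAK2. SEMA4B, at 0.000145, went to -0.00121 with DESeq2 size factors, -0.0155 with upper-quartile factors, -0.0113 with the stricter filter and -6.86e-06 with the replicate block. SEMA6C was at 0.00633 with DESeq2 and 0.0131 without a filter. Leaving out 1 library gave ranges that crossed 0: -0.0125 to 0.184 for NRP2, -0.0513 to 0.0314 for SEMA4B, -5.59e-05 to 0.0921 for SEMA4C, -0.109 to 0.0633 for SEMA5B, -0.0544 to 0.0824 for SEMA6C and -0.326 to 0.0454 for SEMA7A. The cause was not tested. Over the same set of members, SMN1 and pathway genes, 37 calls were lost and 10 gained. RRAS and TWIST1 are not in that count. Some members rested on few reads, such as SEMA6B on 11 to 32 per library and SEMA4A on 25 to 42. Whether more depth would change their calls was not tested.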
